A study of Mus musculus with 6 samples.

Results

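The circadian clock genes described here are 10 transcripts, Per1, Per2, Per3, Cry1, Cry2, Nr1d1, Nr1d2, Dbp, Tef and Bhlhe40, taken by name from the 40202 genes listed in the deposited table of normalised reads. They were taken by name, with earlier results of these data known, as a set that responds to handling and to the time since serum was given. Total RNA was sequenced from BV2, an immortalised mouse microglial line of C57BL/6 origin grown in medium with fetal bovine serum. A control group of 3 libraries came from untreated cells, and a group of 3 came from cells that had received full-length human apolipoprotein E4 (FL-ApoE4), a carrier of lipids, at 25 µg/ml and were kept with it for 5 h. The labels give neither a vehicle for the controls nor the hour of harvest or of the last medium change for either group. They also do not say whether the 3 libraries of a group came from cultures grown apart, so the p-values measure the spread between these libraries, which may be technical.

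The mammalian clock is a transcriptional loop. The proteins CLOCK and BMAL1 (gene Arntl) bind E-box sequences and switch on the Per and Cry genes, whose proteins return to the nucleus and repress CLOCK and BMAL1. A second loop runs through REV-ERBα and REV-ERBβ (genes Nr1d1 and Nr1d2), which repress Arntl at sites shared with the ROR activators, and a further arm through the D-box factors DBP and TEF. In cultured cells a change of serum, a glucocorticoid or cAMP signalling induces Per1 and Per2 within hours and can bring the clocks of many cells into step, and microglia are known to carry a working clock.

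Libraries held 45700128 to 54965393 reads assigned to genes. Of 10 microglial marker genes 9 passed a mean of 10 normalised reads, among them the growth factor receptor gene Csf1r at 45849 to 57740, and P2ry12 was listed at 0 in all 6 libraries. Their sum was 134790 to 144080 in controls and 150420 to 154770 with FL-ApoE4, and their lowest p was that of the chemokine receptor gene Cx3cr1. With all 6 libraries Cx3cr1 was higher by 1.20 ± 0.12 (SE) and Tmem119 by 0.82 ± 0.25 on the log2 scale (limma adjusted p = 0.0666 and 0.242). DESeq2 gave 3 of the 9 an adjusted p under 0.05, Cx3cr1, Tmem119 and Csf1r, all higher, against 3.21% of its genes. Without control replicate 1 Cx3cr1 rose by 1.20 and Tmem119 by 0.49 on the log2 scale (limma adjusted p = 0.00226 and 0.00813). These were the 2 of 9 that passed in that fit, where 4.62% of all genes did. The part of this in the clock genes' values was not tested. The 5 fibroblast markers summed to at most 8.69 in any library, the 5 astrocyte markers to at most 130 and the 5 neuronal markers to at most 87.6. Oligodendrocyte markers summed to 1152 to 1295, nearly all of it Mbp with Mog, Olig2 and Sox10 near 0, and endothelial markers to 3009 to 4772, nearly all of it Kdr with Cldn5 near 0. One library stood apart from its group. In control replicate 1 the inflammatory cytokine gene Tnf was at 44899 normalised reads, against 14765 and 13289 in control replicates 2 and 3 and 8247 to 8727 with FL-ApoE4. The clock genes shared in this: 9 of the 10 were lower in control replicate 1 than the mean of the other controls and Cry1 was higher, with a median absolute difference of 0.40 on the log2 scale against 0.16 over all genes tested. Between FL-ApoE4 replicate 1 and the other treated libraries the same medians were 0.13 for the clock genes and 0.12 for all genes. Results are therefore given with and without the first libraries.

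With all 6 libraries no clock gene passed the test, and those with the widest separation were the cryptochrome genes Cry1 and Cry2 and the repressor gene Nr1d2, which were lower by 20% to 29% in the treated group's mean. Of the 10 genes 9 had a negative log2 fold change and Per3 a positive one, where 49.7% of all 14079 genes tested were negative. All 10 passed the filter on low values. By limma with Benjamini-Hochberg adjustment over all genes tested 0 of 10 reached an adjusted p under 0.05, and 0% of all genes did. At an unadjusted p under 0.05 there were 3 of 10, Cry1, Cry2 and Nr1d2, against 13.1% of all genes (6.33% lower). The edgeR quasi-likelihood test also called 0 of 10, and DESeq2 called those 3, all lower, against 3.21% of the genes to which it gave an adjusted p (1.59% lower). The authors' deposited table likewise lists the 3 with an adjusted p under 0.05, where 2.85% of its genes with an adjusted p had one (1.33% lower). Groups did not overlap for these 3 genes, all lower with FL-ApoE4. Over all genes tested 21.9% did not overlap, 10.9% being lower. An exact permutation test of a single gene cannot go below p = 0.1 with 3 libraries against 3.

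**Figure D1:**
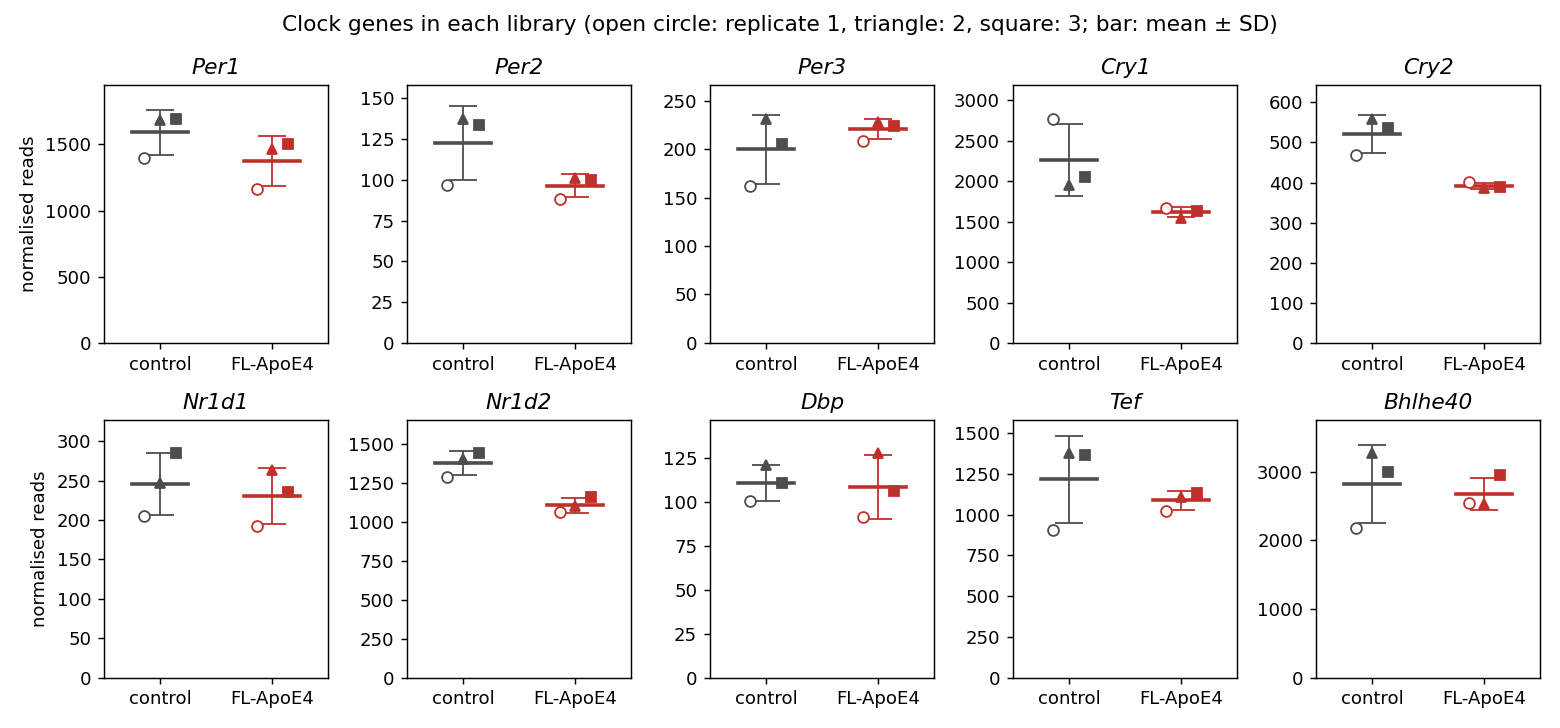
Normalised reads of each of the 10 clock genes in the 3 control and 3 FL-ApoE4 libraries, each axis starting at 0, with the mean and SD of each group. The groups stand clear of each other for Cry1, Cry2 and Nr1d2 and overlap for the other 7, and control replicate 1 (open circle) is the lowest control everywhere but in Cry1, where it is the highest.

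The cryptochromes are the main repressors of CLOCK and BMAL1. Cry1 was at 2776, 1958 and 2055 normalised reads in control replicates 1 to 3 and at 1664, 1545 and 1637 in FL-ApoE4 replicates 1 to 3. All treated libraries were below all controls, and most of the spread in controls came from replicate 1. The means were 2263 ± 447 and 1615 ± 62.2 (SD, n = 3 each). The difference on a log2(value + 1) scale, where the changes of sparse genes appear too small, was -0.47 ± 0.13 (SE), with a limma adjusted p of 0.209. Without control replicate 1 Cry1 fell by 0.31 (limma adjusted p = 0.0256), so the difference was smaller without that library and yet passed the test.

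Cry2 was at 468, 560 and 537 normalised reads in controls and at 400.5, 387 and 389 with FL-ApoE4. The treated libraries lay within 14 reads of each other and below the lowest control, which was replicate 1. The group means were 522 ± 47.7 and 392 ± 7.50, with a log2 fold change of -0.41 ± 0.09 and a limma adjusted p of 0.160. Here leaving out control replicate 1 widened the difference, and Cry2 fell by 0.48 (adjusted p = 0.0111). The log2 ratio of Cry1 to Cry2 was 2.57 in control replicate 1 and between 1.81 and 2.07 in the other 5 libraries, so this ratio set that library apart, and the groups overlapped.

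The REV-ERB genes gave unlike values. Nr1d2 (REV-ERBβ) was at 1291, 1405 and 1442 normalised reads in controls and at 1063, 1104 and 1160 with FL-ApoE4. Every treated library was below the lowest control, and it was the clock gene with the lowest unadjusted p (0.00239). Its means were 1379 ± 78.4 and 1109 ± 48.6, with a log2 fold change of -0.31 ± 0.07 and a limma adjusted p of 0.160. Nr1d2 fell by 0.36 when control replicate 1 was left out (adjusted p = 0.0181). Nr1d1 (REV-ERBα) was at 205, 248 and 285 normalised reads in controls and at 192, 263 and 236 with FL-ApoE4. These values overlapped throughout, and replicate 1 was the lowest in each group. The log2 fold change of Nr1d1 was -0.09 ± 0.16, with a 95% interval of -0.47 to 0.29 that includes the value of Nr1d2. The log2 ratio of Nr1d1 to Nr1d2 was -2.65, -2.50 and -2.34 in controls and -2.47, -2.07 and -2.30 in treated libraries, which overlap.

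RefSeq promoter windows of build GRCm38.p6, each 300 bases from 250 before to 50 after an annotated start, were matched by symbol for 8 of the 10 genes. Those of the 3 genes just described and of Per3, the gene with a positive difference, are printed 5′ to 3′ on the gene's strand, which is the minus strand for all 4, to show which clock motifs stand near their starts. Capitals mark matches to the E-box CACGTG, the E-prime box CACGTT, the D-box TTATGTAA and the REV-ERB and ROR half-site AGGTCA. The cAMP response element TGACGTCA was also searched, every motif was read on both strands, and no match in these windows overlapped another.
Cry1, chr10:85185005-85185304: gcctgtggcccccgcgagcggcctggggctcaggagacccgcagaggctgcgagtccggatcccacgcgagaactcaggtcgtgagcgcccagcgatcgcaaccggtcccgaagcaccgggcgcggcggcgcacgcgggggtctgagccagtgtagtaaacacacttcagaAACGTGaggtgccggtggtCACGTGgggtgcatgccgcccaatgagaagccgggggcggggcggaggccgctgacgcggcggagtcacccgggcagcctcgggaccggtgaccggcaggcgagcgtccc
Cry2, chr2:92434020-92434319: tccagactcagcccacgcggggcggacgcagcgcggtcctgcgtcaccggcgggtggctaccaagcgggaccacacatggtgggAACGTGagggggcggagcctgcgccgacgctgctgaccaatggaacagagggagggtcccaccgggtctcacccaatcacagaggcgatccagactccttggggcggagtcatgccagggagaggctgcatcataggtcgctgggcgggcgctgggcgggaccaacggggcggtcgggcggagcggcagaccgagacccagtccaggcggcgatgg
Nr1d2, chr14:18239057-18239356: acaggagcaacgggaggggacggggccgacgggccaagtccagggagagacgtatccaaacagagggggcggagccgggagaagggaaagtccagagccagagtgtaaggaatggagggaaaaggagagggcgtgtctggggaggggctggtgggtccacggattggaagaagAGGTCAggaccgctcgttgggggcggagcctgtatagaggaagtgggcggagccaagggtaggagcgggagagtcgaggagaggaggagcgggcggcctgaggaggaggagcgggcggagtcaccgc
Per3, chr4:151044616-151044915: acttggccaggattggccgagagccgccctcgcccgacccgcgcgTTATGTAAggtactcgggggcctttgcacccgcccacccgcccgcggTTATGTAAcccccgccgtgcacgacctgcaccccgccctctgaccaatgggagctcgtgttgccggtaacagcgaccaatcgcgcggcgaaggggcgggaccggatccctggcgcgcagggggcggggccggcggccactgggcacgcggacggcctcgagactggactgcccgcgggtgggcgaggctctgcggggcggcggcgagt
Cry1 holds an E-box whose first base is at -60 from its start and an E-prime box at -79. Cry2 holds an E-prime box at -166 and Nr1d2 a half-site at -77. Per3 holds D-box matches at -205 and -158. Among all 32851 windows 7.15% hold an E-box, 4.68% an E-prime box, 0.938% a D-box, 1.79% the cAMP element and 16.3% the half-site. Further E-boxes stand in a window of Per1 and in both windows of Tef. That window of Per1 also holds a half-site at -137, so the half-site is not particular to Nr1d2. An E-prime box stands in the window of Nr1d1, and the window of Dbp holds none of the motifs searched. Genes with an E-box or E-prime box thus include Cry1 and Cry2, whose groups did not overlap, and Per1, Nr1d1 and Tef, whose groups did. A match describes the letters of the window and not a bound site.

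**Figure D2:**
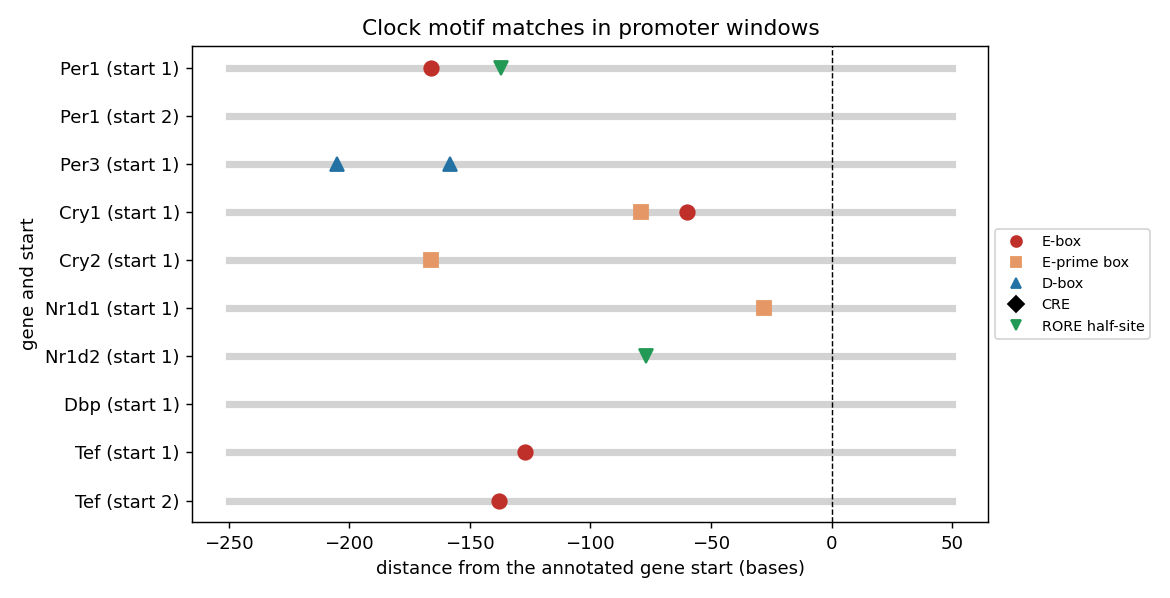
Positions of motif matches in the promoter windows of the clock genes, in bases from the annotated start (dashed line at 0), one row per annotated start and one symbol per motif. Cry1 carries an E-box and an E-prime box, Per3 a pair of D-boxes, and no window holds the cAMP response element.

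The period genes encode the partners of the cryptochromes, and Per1 and Per2 are the clock's acute responders to serum and hormones. Per1 was at 1396, 1682 and 1694 normalised reads in controls and at 1161, 1461 and 1505 with FL-ApoE4. Control replicate 1 fell among the treated values, and FL-ApoE4 replicate 1 was the lowest library of all. The log2 fold change was -0.21 ± 0.12, with a limma adjusted p of 0.51. Without FL-ApoE4 replicate 1 it was -0.095 (adjusted p = 0.755). Per1 did not pass without control replicate 1 either (adjusted p = 0.158). It passed only among the fits run when replicate 1 of both groups was left out, with a fall of 0.19 (adjusted p = 0.0288).

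Per2 was among the sparsest clock genes, with 79 to 145 reads before normalisation, where counting alone gives a coefficient of variation of 11.3% at the fewest reads. Its values were 96.7, 138 and 134 in controls and 88.1, 101 and 99.8 with FL-ApoE4. Control replicates 2 and 3 were above every treated library, while control replicate 1 was not. The log2 fold change was -0.33 ± 0.17, with a 95% interval of -0.72 to 0.06, and it was -0.49 if control replicate 1 was left out (limma adjusted p = 0.0812). Per3 was at 162, 231 and 205 in controls and at 209, 228 and 224 with FL-ApoE4. Control replicate 1 was the only library below 200, and the rest overlapped. The log2 difference of Per3, 0.16 ± 0.14, became 0.01 without that library.

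The D-box activators Dbp and Tef drive clock output genes. Dbp was at 101, 121 and 111 normalised reads in controls and at 91.5, 128 and 107 with FL-ApoE4. The treated libraries spanned the whole range of the controls. The log2 fold change was -0.04 ± 0.16, with a 95% interval of -0.41 to 0.33, which reaches the value of Cry2. Tef was at 907, 1376 and 1366 in controls and at 1020, 1108 and 1134 with FL-ApoE4. Its control replicate 1 was the lowest of the 6 libraries and control replicates 2 and 3 the highest. With all libraries the difference was -0.14 ± 0.16 in log2 (limma adjusted p = 0.785), and without control replicate 1 Tef fell by 0.34 (adjusted p = 0.0299). With control replicate 2 or 3 left out in its place the difference was -0.035 or -0.041, so the value of Tef depended on which control was kept.

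Bhlhe40 (DEC1) encodes a repressor that competes for E-boxes and also answers hypoxia and cytokine signals. Its values were 2185, 3270 and 3004 in controls and 2553, 2534 and 2954 with FL-ApoE4. The treated libraries lay between control replicate 1 and the other controls. The log2 fold change was -0.06 ± 0.15, and it was -0.23 with control replicate 1 left out (limma adjusted p = 0.152). Without control replicate 2 it was 0.062, so its direction was not settled.

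Over the 10 genes, leaving out control replicate 1 called 4, Cry1, Cry2, Nr1d2 and Tef, all lower, where 1.69% of all genes were called lower and 4.62% in either direction. This fit rests on 2 controls, which differed by a median of 0.07 in log2 over all genes tested. On the same libraries edgeR and DESeq2 also called 4 each, against 4.91% of all genes with edgeR (1.90% lower) and 7.54% with DESeq2 (3.27% lower). Leaving out replicate 1 of both groups called 5, those 4 and Per1, against 5.53% of all genes called lower and 12.6% in either direction. In the same fit 6 of 10 glucocorticoid targets, 5 of 8 cAMP-CREB targets and 6 of 15 immediate early genes, described below, were called lower. Further core clock genes gave 2 of 8, protein turnover 1 of 11, hypoxia 1 of 9 and temperature 0 of 6. The median log2 fold change of the 10 genes was -0.18 with all libraries, -0.31 without control replicate 1 and -0.24 without replicate 1 of both groups, with that of all genes tested at 0.00 each time. The part of control replicate 1's departure in the missing calls was not tested beyond these fits.

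**Figure D3:**
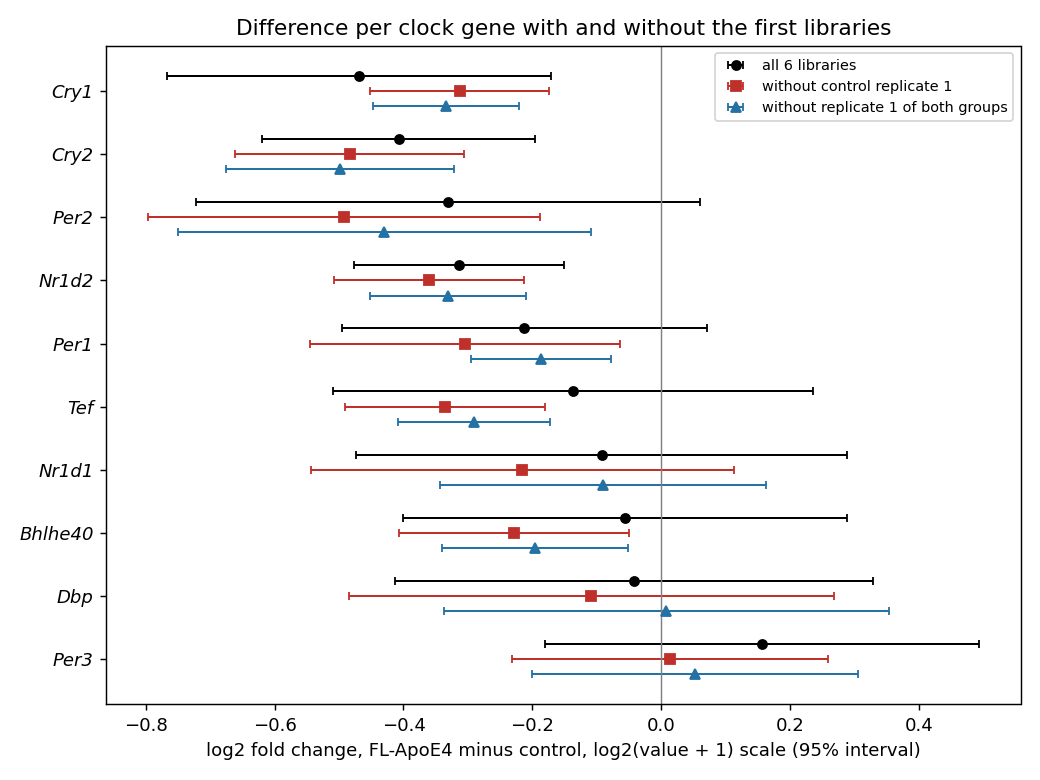
Log2 fold change (FL-ApoE4 minus control) of each clock gene with its 95% interval from limma, for all 6 libraries, without control replicate 1 and without replicate 1 of both groups. The intervals of Cry1, Cry2 and Nr1d2 stay below 0 in all 3 fits and those of Nr1d1, Dbp and Per3 include 0 in each.

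Levels were compared between genes per kilobase of merged exons (GENCODE M21), as normalised reads. Bhlhe40 and Cry1 stood highest, at 585 and 581 normalised reads per kilobase over the 6 libraries, followed by Per1 at 263, Nr1d2 at 230 and Tef at 146. Lower down came Nr1d1 at 77.4, Cry2 at 72.3, Dbp at 36.7, Per3 at 21.8 and Per2 at 18.7. The ranges over libraries overlapped for the neighbours Bhlhe40 and Cry1, Per1 and Nr1d2, Nr1d1 and Cry2, and Per3 and Per2. Merged exons can exceed the transcript that a cell makes, so this order is approximate. Exons of 5 clock genes overlap those of a gene on the opposite strand, and no source used here gives the strand setting of the counting. The partners, named after their values were seen, differed by 0.04 ± 0.09 in log2 for Thra, which overlaps Nr1d1, by -0.01 ± 0.05 for Sphk2, which overlaps Dbp, by -0.23 ± 0.31 for Gm17597, which overlaps Tef, and by -0.03 ± 0.17 for 0610040F04Rik, which overlaps Bhlhe40. The partner of Cry2, D930015M05Rik, was listed at 0. Gm17597 was at 14.1 to 28.2 normalised reads, far below Tef. Sphk2 was at 2757 to 2926 normalised reads, far above Dbp, and Thra at 458 to 557, above Nr1d1. Dbp and Nr1d1 are therefore uncertain if reads were not split by strand.

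Across the 6 libraries 38 of the 45 pairs of clock genes had a positive Pearson r on the log2 scale, with a median of 0.58. The pairs most alike were Cry2 with Nr1d2 (0.95), Tef with Bhlhe40 (0.93) and Per1 with Per2 (0.90), and the least alike was Per3 with Cry1 (-0.86). These are descriptions of 6 libraries that share depth, group and the departure of control replicate 1. For Nr1d2 the genes most alike among all tested were Esco2 (0.996), Dusp18 (0.996), Mtbp (0.990), Pfkp (0.990) and Sgo2a (0.989), and 94 of the 14079 genes tested exceeded an r of 0.95 with it. The ratio of Per2 to Cry1 on the log2 scale ran from -4.84 to -3.83 in controls and from -4.24 to -3.94 with FL-ApoE4. That of Per1 to Per2 ran from 3.61 to 3.85 and from 3.72 to 3.91, and that of Dbp to its D-box repressor Nfil3 from -3.72 to -3.51 and from -3.76 to -3.06, so the groups overlapped in each.

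Of 14 further names of core clock genes, 12 were listed and 8 tested, 4 higher and 4 lower with FL-ApoE4. Arntl, which encodes BMAL1, had the lowest p, at 755, 714 and 682 normalised reads in controls and 588, 558 and 593 with FL-ApoE4. The groups did not overlap, the log2 fold change was -0.31 ± 0.07 (limma adjusted p = 0.180), and DESeq2 called it (adjusted p = 0.0475) while the authors' deposited table lists an adjusted p of 0.0522. The activator gene Rora, which opposes the REV-ERBs at the Arntl promoter, was at 324, 247 and 258 in controls and 189, 222 and 202 with FL-ApoE4, a log2 fold change of -0.43 ± 0.13. Higher values without overlap were seen for Npas2, a substitute for CLOCK (0.19 ± 0.08), and for the BMAL1 paralogue gene Arntl2 (0.35 ± 0.18). Clock itself was at 2891 to 2924 in controls, at 2868 in FL-ApoE4 replicates 2 and 3 and at 2365 in FL-ApoE4 replicate 1. Bhlhe41 (0.11 ± 0.06), Nfil3 (-0.17 ± 0.11) and Timeless (0.01 ± 0.11) overlapped. By limma 0 of the 8 passed, as did 0% of all genes, with 3 at an unadjusted p under 0.05, where 13.1% of all genes were, and edgeR called none of Arntl, Rora and Npas2. Without control replicate 1 again 0 passed, where 4.62% of all genes did. Without replicate 1 of both groups Arntl and Nfil3 fell (limma adjusted p = 0.0278 and 0.0134). In that fit 5.53% of all genes were called lower and 12.6% in either direction. The log2 ratio of Nr1d1 to Arntl was -1.88, -1.53 and -1.26 in controls and -1.62, -1.08 and -1.33 with FL-ApoE4, which overlap.

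**Figure D4:**
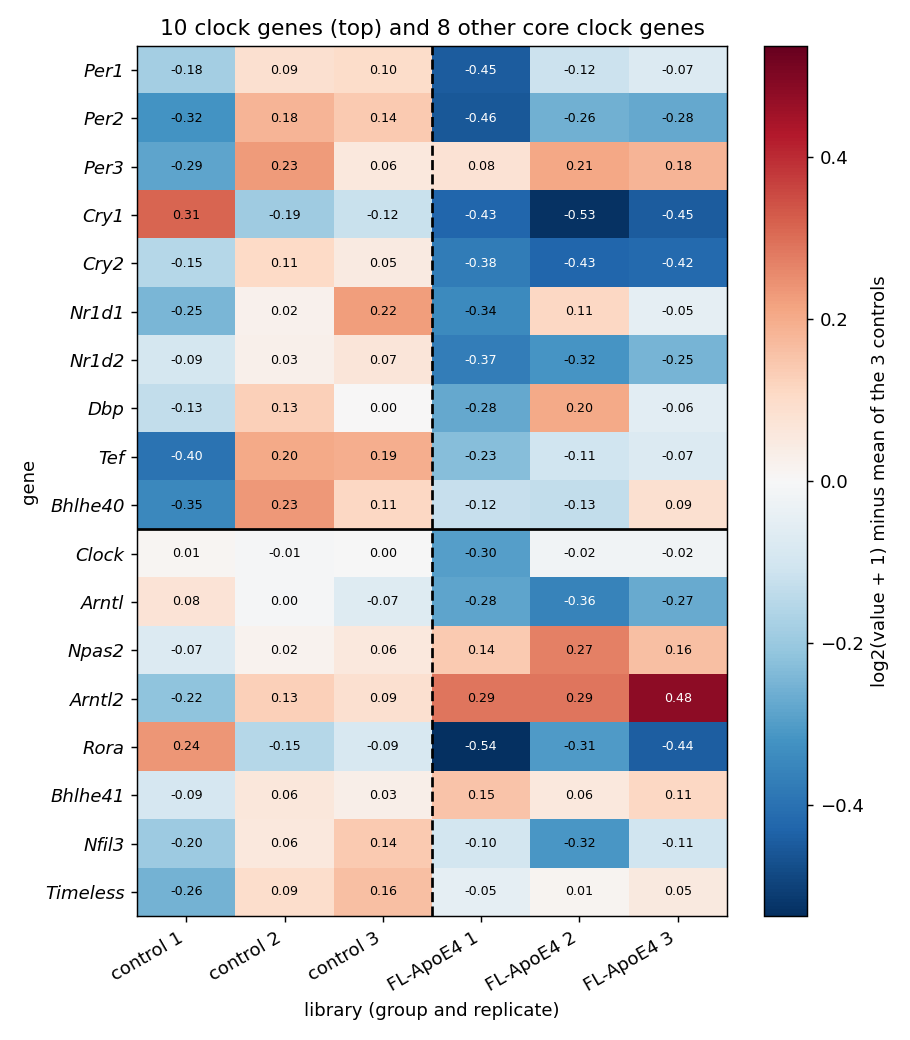
Log2(value + 1) of each clock gene (top) and of 8 other core clock genes (bottom) in each library, relative to the mean of the 3 controls, with blue for lower and red for higher. Cry1, Cry2, Nr1d2, Arntl, Rora and Clock are lower in all 3 treated libraries than in any control, Clock by only 0.02 in FL-ApoE4 replicates 2 and 3 relative to the control mean. Per1, Per2, Tef and Nfil3 are below the control mean in all 3 treated libraries but overlap the controls. Control replicate 1 differs from the other controls in most rows.

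Enzymes and ligases that set the lifetime of clock proteins were also measured. Of 11 tested, 8 were lower and 3 higher, around a median of -0.05 in log2. The deacetylase gene Sirt1 was lower without overlap (-0.19 ± 0.06) and did not pass the limma test with all libraries (adjusted p = 0.262).

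Lists of genes that answer handling, serum, hormones or temperature are given beside these values. By limma 0 members of any of them passed with all 6 libraries. On the same libraries DESeq2 called 4 immediate early genes (Junb, Ier3, Atf3 and Nr4a1), 3 cAMP-CREB targets (Crem, Nr4a3 and Pde4b), 2 glucocorticoid targets (Ddit4 and Dusp1) and 1 hypoxia-linked gene (Vegfa), all lower, and 0 temperature-linked genes, where 1.59% of the genes it tested were called lower. Temperature-linked genes, 6 of 8 tested, had a median log2 fold change of 0.01, and 0 reached an unadjusted p under 0.05, where 13.1% of all genes did. The cold-inducible Rbm3 differed by 0.01 ± 0.05 and the chaperone gene Hspa8, lowest in p, by 0.05 ± 0.06. Glucocorticoid targets, 10 tested, had a median of -0.12, with 3 lower at an unadjusted p under 0.05, where 6.33% of all genes were: Ddit4, an mTORC1 inhibitor that also answers other stresses (-1.38 ± 0.26), the phosphatase gene Dusp1 (-0.55 ± 0.12) and Klf9 (-0.19 ± 0.05). Without control replicate 1 Ddit4 fell by 1.66 and Zbtb16 fell by 0.47 (limma adjusted p = 0.0021 and 0.0404). They were the 2 of 10 called in that fit, where 1.69% of all genes were called lower and 4.62% in either direction. With all 6 libraries Zbtb16 was at -0.12 ± 0.27 (limma adjusted p = 0.906), and its groups overlapped. The hormone-induced genes Fkbp5 and Sgk1 were at -0.06 ± 0.06 and 0.12 ± 0.09. Tsc22d3 (GILZ), another such gene, stood at 449 normalised reads in the first control library, 902 and 874 in the other controls and 758 to 814 with FL-ApoE4.

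Genes of the cAMP and CREB route, by which Per1 is also induced, were lower in 8 of 8 tested, with a median of -0.22. Of these 4 were at an unadjusted p under 0.05, beside 49.7% negative and 13.1% at that p over all genes. The 8 include Creb1 (-0.006 ± 0.051) and Crtc2 (-0.12 ± 0.08), which encode parts of the route itself, and Creb1 hardly differed. Lowest in p was the orphan receptor gene Nr4a3, at 211, 117 and 107 normalised reads in controls and 37.9, 27.8 and 62.6 with FL-ApoE4. Without control replicate 1, Nr4a3 fell by 1.45, Pde4b by 0.84 and Sik1 by 0.35 on the log2 scale (limma adjusted p = 0.0329, 0.000825 and 0.0434). These were the 3 of 8 called in that fit, where 1.69% of all genes were called lower and 4.62% in either direction. With all 6 libraries Sik1 was at -0.12 ± 0.18 (limma adjusted p = 0.842), and its groups overlapped. Serum-responsive immediate early genes were lower in 13 of 15 tested, with a median of -0.33 and 7 at an unadjusted p under 0.05, beside the same shares of 49.7% and 13.1%. Junb, an AP-1 subunit, had the lowest p (log2 fold change -0.60 ± 0.11, adjusted p = 0.112), while Fos, the classical serum-induced gene, was at 621, 1427 and 1290 in controls and 1431, 1506 and 1574 with FL-ApoE4, which is 0.52 ± 0.28 higher in log2 without overlap. Leaving out control replicate 1 took the difference of Fos to 0.15 (limma adjusted p = 0.310). In the fit without control replicate 1, 5 of the 15 fell, with log2 fold changes of -0.47 for Junb, -0.74 for Ier3, -1.42 for Nr4a1, -1.41 for Fosb and -0.27 for Ier2, and 0 rose, where 1.69% of all genes were called lower and 4.62% in either direction. Hypoxia-linked genes, 9 tested, had a median of 0.01, with 1 at an unadjusted p under 0.05, near the 13.1% of all genes. That gene was the angiogenic factor gene Vegfa (-0.61 ± 0.07). Mouse Apoe, the cells' own gene, differed by 0.02 ± 0.07. The part of any of these signals in the clock genes' values was not tested.

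**Figure D5:**
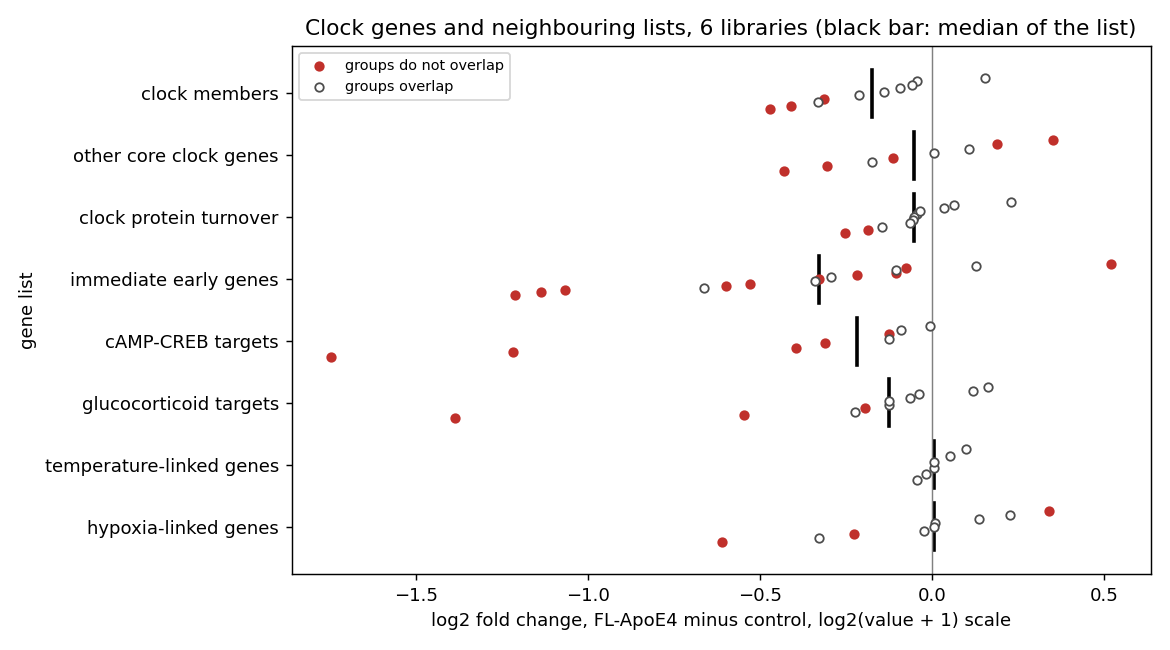
Log2 fold changes (FL-ApoE4 minus control, all 6 libraries) of every tested member of the clock list and of 7 related lists, filled where the groups do not overlap, with the median of each list as a black bar. The clock genes run from -0.47 to 0.16 around a median of -0.18, temperature-linked genes lie close to 0, and the lowest single values are in the cAMP-CREB, glucocorticoid and immediate early lists.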

How the data were processed

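Total RNA of 6 BV2 samples was sequenced from libraries made with a directional kit, per the labels' protocols. Per the submitters' processing notes, the tools were HISAT2 2.2.1, FastQC 0.11.8, DESeq2 1.30.1 and HTSeq, on build GRCm39, and no settings are named there. The authors deposited normalised signal values for 40202 genes in each library. Dividing a column by its smallest value above 0 gave whole numbers (tolerance 0.01, 100% of values), taken as read counts in the count tests. The authors' deposited table of statistics holds p-values, adjusted p-values and log2 fold changes (adjusted p NA for 27305 genes).

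Groups were compared two-sided in R 4.3.3 by limma 3.58.1 with its trend option, on log2(value + 1) of the 14079 genes with a mean of at least 10, adjusted by Benjamini-Hochberg at a threshold of 0.05. Group was its one term, and both groups shared an estimate of spread. DESeq2 1.42.0 and edgeR 4.0.16 took the recovered reads. edgeR called 0 genes with all libraries, and 1844 had an unadjusted p under 0.05. The 3 methods were tested on simulated data. Other alternatives were the pseudocount (0.5 and 5), the filter (a mean above 0, or of at least 50), TMM and quantile scaling, robust variance or no trend in limma, a replicate block, each library left out, and replicate 1 of both groups left out. edgeR and DESeq2 without control replicate 1, and removal of each library's trend with exon length (known for 92.1% of tested genes, GENCODE M21, lowess span 0.3), were chosen after seeing the data.

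The 10 members and the gene lists were chosen with earlier results of these data known. Genes named were the 10 members, the other core clock genes, the member of lowest p and those called in each list, the markers included, Apoe, Tnf, Vegfa and the 5 genes most like the clock gene of lowest p. Dusp1, Klf9, Fkbp5, Sgk1, Tsc22d3, Rbm3, Sirt1, Fos, Creb1, Crtc2 and the other marker genes named were added after their values were seen. Promoter sequences are RefSeq's for GRCm38.p6, matched by symbol, and no coordinate was carried between builds. Results for 2 genes of the lists are not reported here. Intervals do not cover differences between cultures.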

Additional observations from a re-analysis of the deposited data

How the results depend on the processing

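Of 210 alternative values for the 10 clock genes, 183 kept their direction and side of the threshold, 20 kept direction and passed it, and 7 changed sign. Changing the filter, the trend or robust option of limma, or adding the replicate block leaves each log2 fold change as it was. Those fits could move only the side of the threshold, so their kept direction is no evidence of stability. The changes of sign were Nr1d1 without control replicate 3 or FL-ApoE4 replicate 1 (0.019 and 0.033, over leave-outs from -0.22 to 0.033), Dbp without control replicate 2, FL-ApoE4 replicate 1 or replicate 1 of both groups (0.023, 0.075 and 0.0080, from -0.17 to 0.075), and Bhlhe40 without control replicate 2 or 3 (0.062 and 0.00021, from -0.23 to 0.062), and for these genes the direction is not settled. Cry1 ran from -0.56 to -0.31, Cry2 from -0.50 to -0.35 and Nr1d2 from -0.36 to -0.28 on the log2 scale over 21 alternatives each. The count of clock genes called was 0 in the reported fit, 3 with DESeq2, and 0 to 5 with libraries left out, above 0 only where control replicate 1 was among them. Without control replicate 1, limma, edgeR and DESeq2 each called 4. The count over all genes was 0 in the reported fit, 390 with DESeq2, 1 with a mean above 0, 13 with the exon length trend removed, and 0 to 1767 with libraries left out: 651 without control replicate 1, 691 and 959 in the same libraries with edgeR and DESeq2, and 1 without FL-ApoE4 replicate 2. The cause was not tested. TMM and quantile scaling moved the median of all genes by less than 0.01. Same-numbered libraries had deviations that correlated at 0.13, 0.07 and -0.03, and control replicate 3 correlated best with FL-ApoE4 replicate 2, so the numbers were not taken to pair the libraries. With the replicate block 0 genes and 0 clock genes were called. Depth limits Per2 and Dbp most, with at most 145 and 138 reads.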

Other observations

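Clock genes below the filter of 10 normalised reads were looked at as values. Hlf, the third D-box activator beside Dbp and Tef, was at 7.60, 8.54 and 9.42 normalised reads in controls and 3.35, 3.71 and 3.92 with FL-ApoE4, from 7 to 10 and 3 to 4 reads. The groups did not overlap, and in the limma fit of all 24244 genes with a mean above 0 the log2 fold change was -1.03 ± 0.36 (adjusted p = 0.332). Rorb was at 2.83 to 4.34 in controls and at 0, 1.85 and 0 with FL-ApoE4. Ciart, a clock repressor gene, was listed at 0 in all 6 libraries. A 0 here means that no read was assigned to the gene, which does not by itself show that the gene is silent.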
